A study of Mus musculus with 2 samples.

Results

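Matrix metalloproteinases, the related protease ADAMTS1 and the tissue inhibitors of metalloproteinases were followed through the cell classes of mouse brain carrying a KR158 glioblastoma graft. The 10 genes were Mmp2, Mmp9, Mmp12, Mmp14, Mmp15, Adamts1, Timp1, Timp2, Timp3 and Timp4, chosen by symbol from the 32285 genes of the deposited matrices with earlier results of these data in view. They are 6 proteases and 4 inhibitors. Their values below describe 2 libraries and carry no test.

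Single-cell RNA-seq libraries were made from the brains of 2 groups of C57BL/6 hosts that had received KR158 mouse glioblastoma cells by intracranial injection, with 1 library per group. The control library came from a Cx3cr1 CreER/+ host with the Plxnb2 genotype fl/+, which its title calls WT, and the library of the conditional knockout (cKO) came from a Cx3cr1 CreER/+ host with Plxnb2fl/fl. Both groups therefore carried the tamoxifen-dependent Cre recombinase at the Cx3cr1 locus, which is active in microglia and other myeloid cells, and the control carried 1 floxed allele of Plxnb2, the gene of the semaphorin receptor Plexin-B2. Tamoxifen at 100 mg/kg was started 3 days before the graft and repeated on alternate days until week 8, when tissue within about 1 mm of the injection site was dissociated with papain. Genotype, animal, dissection and library preparation cannot be told apart, and the labels do not say how many animals each library holds. Intervals below are 95% intervals that cover counting error only.

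The control matrix held 64756949 UMIs (distinct tagged RNA molecules) and the cKO matrix 63785513, and filtering kept 7624 control and 5206 cKO cells. Only 8 barcodes of cells passing the filters occurred in both libraries. Marker-named classes with at least 100 cells in each library were compared, namely microglia, astrocytes, ependymal cells, oligodendrocytes, neuroblasts, endothelial cells, and pericytes or smooth muscle cells. In these 7 classes every marker of the class's own list was detected in both libraries, each at 50 CPM or more. No cluster was named tumour cell. The control library held 357 choroid plexus cells and the cKO library 4, and the summed level of the 8 choroid plexus markers in microglia was 1604 CPM for control and 2.31 CPM for cKO cells. Plxnb2 in microglia was 199 CPM for control and 36.8 CPM for cKO cells (log2 ratio -2.44, -2.69 to -2.20), 1 of the genes in the 2.16% of measured genes that were at least 1.5-fold lower there. Whether the 3′ reads counted for Plxnb2 lie in the deleted part of the gene is not given in the sources used here.

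Matrix metalloproteinases are zinc enzymes that cut collagens, laminins, proteoglycans and many other extracellular and cell-surface proteins. Most are secreted as inactive precursors, while the membrane types stay anchored at the cell surface, where they also activate other precursors. TIMP proteins bind the active sites of these enzymes and block them, and TIMP2 has a further role, since its complex with the membrane type enzyme MMP14 serves as the docking site on which pro-MMP2 is activated. In brain tumours the family is known for its part in invasion along vessels and in remodelling of the vascular basement membrane.

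A level is given as CPM, the UMIs of a gene per 1e6 UMIs of the class. CPM is compared here for 1 gene across classes and libraries, never between genes. A gene was counted as measured in a class at 20 CPM or more averaged over the libraries, and as higher or lower in the cKO library at a ratio of at least 1.5-fold. Of the 70 pairs of a member with a compared class, 27 were measured, involving 7 members. Mmp9, Mmp12 and Timp1 reached that level in no compared class. Among the 27 pairs, 3 were higher, 3 were lower and 21 were neither. Over all measured genes, 0.414% to 11.5% were higher and 0.823% to 7.36% lower, depending on the class. Pericytes or smooth muscle had the largest of these shares and held 2 of the higher pairs and 1 of the lower pairs. The 3 higher pairs passed the minimum through the cKO library alone, since their control levels were under 20 CPM, and 1 of the lower pairs, Timp3 in neuroblasts, passed through the control library alone, so their counts are descriptions. The intervals of 3 of these 6 pairs, Mmp15 and Timp4 in pericytes or smooth muscle and Timp3 in neuroblasts, included equality.

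**Figure D1:**
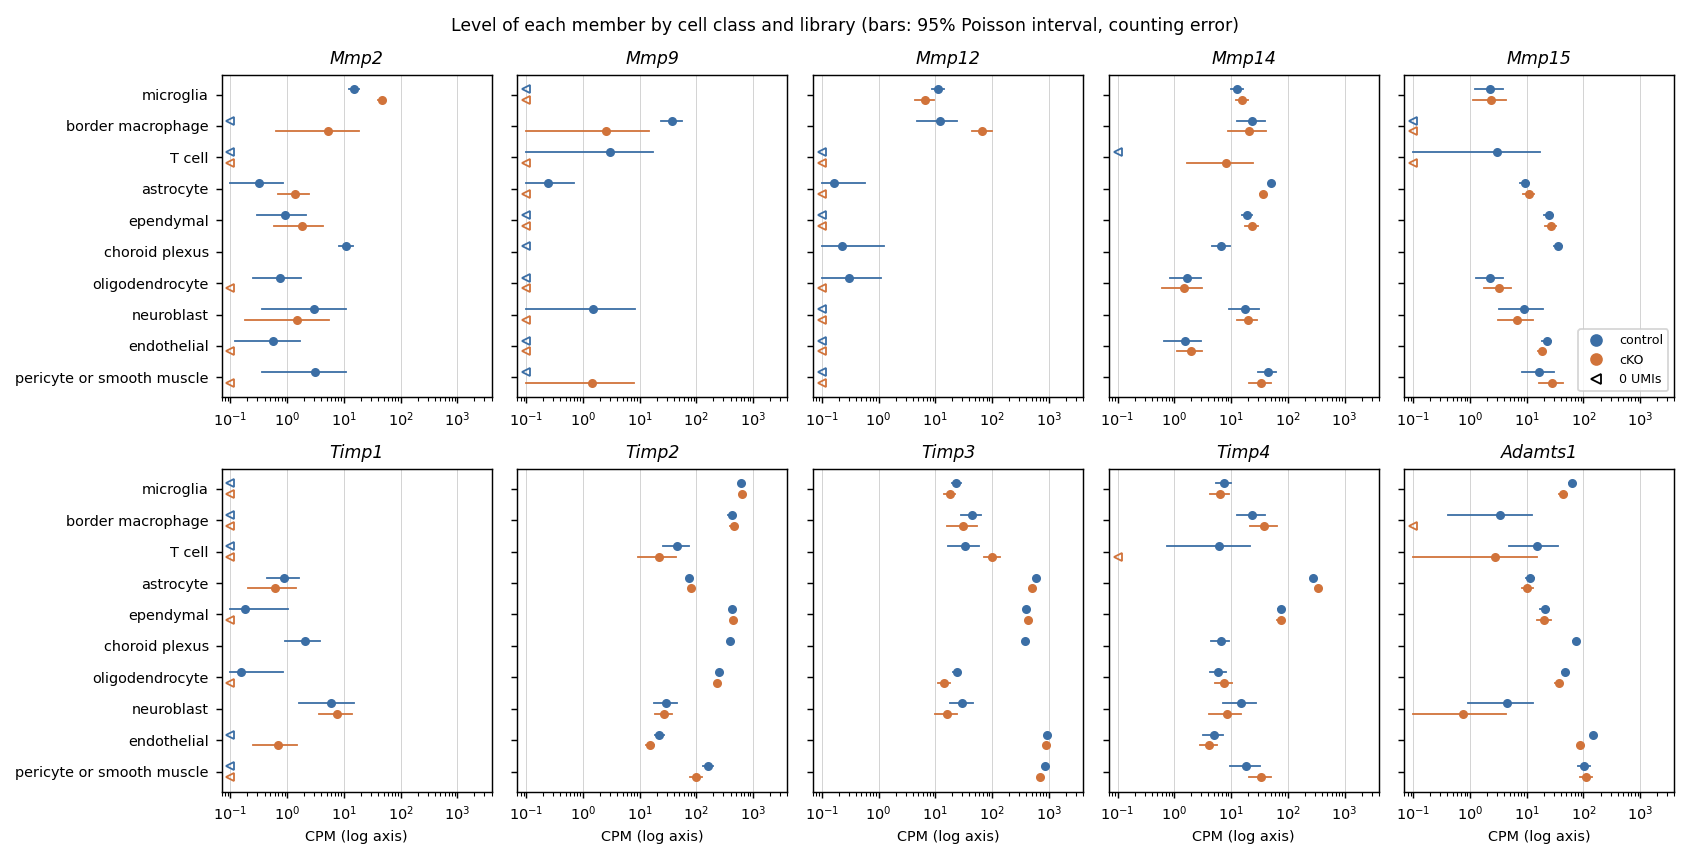
Level of each member in CPM (log axis) by cell class in the control and cKO libraries, 1 point per class and library with its 95% Poisson interval; classes with under 50 cells in a library are left out and open triangles mark 0 UMIs. Mmp2 stood at 15.1 and 46.5 CPM in microglia and at no more than 3.03 CPM in the other compared classes, Timp4 was highest in astrocytes, and Timp3 was highest in the vascular classes among those compared.

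The regions before the transcription starts of Adamts1, Timp4 and Mmp14 are shown because these genes carry the vascular and astrocyte patterns described below. Each is 250 bases long, from RefSeq on GRCm38.p6, 5′ to 3′ on the gene's strand, and ends at the base before the RefSeq start. Adamts1 lies at chr16:85803114-85803363 on the minus strand, Timp4 at chr6:115252206-115252455 on the minus strand, and Mmp14 at chr14:54431348-54431597 on the plus strand. Capitals mark matches to the motifs searched on both strands. These were GGGCGG (the core of an SP1 site, present in 32.7% of all 32851 RefSeq windows of this length), TATAAA (12.4%), the AP-1 motif TGANTCA (6.75%) and the ETS-type motif GAGGAAG (10.6%).
Adamts1: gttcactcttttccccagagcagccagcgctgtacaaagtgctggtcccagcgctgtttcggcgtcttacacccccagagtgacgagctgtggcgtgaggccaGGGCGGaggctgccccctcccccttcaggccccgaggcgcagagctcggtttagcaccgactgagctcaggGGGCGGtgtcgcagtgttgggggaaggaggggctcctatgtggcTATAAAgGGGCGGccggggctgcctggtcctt
Timp4: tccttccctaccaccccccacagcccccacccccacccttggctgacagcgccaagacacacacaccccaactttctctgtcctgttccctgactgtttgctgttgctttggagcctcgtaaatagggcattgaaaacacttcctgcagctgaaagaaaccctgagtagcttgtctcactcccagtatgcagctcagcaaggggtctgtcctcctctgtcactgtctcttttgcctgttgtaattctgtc
Mmp14: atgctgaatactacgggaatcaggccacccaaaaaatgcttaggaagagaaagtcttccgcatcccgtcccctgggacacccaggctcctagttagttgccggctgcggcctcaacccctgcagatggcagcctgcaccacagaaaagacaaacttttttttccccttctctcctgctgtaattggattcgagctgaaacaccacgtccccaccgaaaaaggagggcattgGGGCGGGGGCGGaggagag
The Adamts1 window held GGGCGG at 3 places and TATAAA from 32 to 27 bases before the start, the Mmp14 window held GGGCGG at 2 adjoining places, and no searched motif was found in the Timp4 window. The windows held 15, 2 and 10 CpG dinucleotides in that order, against a median of 6 over all windows, and their G plus C content was 65.6%, 53.6% and 55.2% against a median of 52.4%. Windows were found for 8 of the 10 members. A match describes the letters alone.

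Mmp2 (chr8:92827291-92853420, plus strand) encodes gelatinase A, which degrades basement membrane collagen and denatured collagen. Microglia held 87 Mmp2 UMIs in the control library against 201 for the cKO, or 15.1 CPM (12.1 to 18.6) and 46.5 CPM (40.3 to 53.4). The cKO level was thus 3.08-fold the control level (2.38 to 4.01), a log2 ratio of 1.62, and the counting intervals of the libraries did not overlap. It was the 1 member of the 4 measured in microglia that was higher, where 2.87% of all measured genes were, and no member was lower. The transcript was found in 5.69% of control microglia (79 of 1389 cells, 4.53 to 7.04) and 17.4% of cKO microglia (130 of 749 cells, 14.7 to 20.3). Microglia of the cKO library were sequenced more deeply, with a median of 5239 UMIs per cell against 3842. After each cell was thinned to 1000 UMIs the shares were 1.66% and 4.14%, and the log2 ratio of the thinned levels was 1.31.

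Outside microglia Mmp2 was scarce. Astrocytes, ependymal cells, oligodendrocytes, endothelial cells, neuroblasts and pericytes or smooth muscle lay between 0 and 3.03 CPM in either library, and the share of astrocytes with an Mmp2 UMI was 0.152% and 0.654%. Choroid plexus cells of the control library reached 11.03 CPM, and the 18 control and 15 cKO fibroblasts, which rest on 4 UMIs each, 30.3 and 36.6 CPM. Microglia held 50.6% of all Mmp2 UMIs of kept control cells and 79.4% of those of cKO cells. Fibroblast markers, a set of 8 genes, summed to 7.29 CPM in control and 4.39 CPM in cKO microglia, with 1 and 3 of them at 0.

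Within the microglia class the difference lay in cluster 1, whose leading genes included P2ry12, Cx3cr1 and Tmem119. Its Mmp2 level was 15.7 CPM in 1279 control cells and 49.6 CPM in 565 cKO cells. Cluster 13, a cluster of shallow cells led by C1qb, Trem2 and Tyrobp, held 0 Mmp2 UMIs in 110 control cells and 2 in 184 cKO cells. An unnamed cluster of low-UMI cells that carried all 10 microglia markers gave 14.1 and 37.8 CPM, on 8 and 9 UMIs. A cycling cluster that also carried them and held 51 cKO cells but 1 control cell gave 33.0 CPM in the cKO library. With the unnamed microglia-marked clusters added to the class the log2 ratio was 1.57.

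Mmp2 was also set against Cdkn1a, the gene of the cell cycle inhibitor p21, and against Plxnb2, splits that were chosen after values had been seen. In the cKO library the 426 microglia with a Cdkn1a UMI had 59.8 CPM of Mmp2 (51.4 to 69.2) and the 323 without had 16.5 CPM (10.4 to 25.0). Control microglia had 12.2 CPM in the 81 cells with a Cdkn1a UMI and 15.3 CPM in the 1308 without. The interval of the cKO microglia without Cdkn1a overlapped those of the control cells. After thinning, 5.63% of cKO cells with a Cdkn1a UMI and 2.17% of those without had an Mmp2 UMI, while their median depths were 5985 and 3690 UMIs. Split by Plxnb2, cKO microglia had 59.5 CPM of Mmp2 in the 128 cells with a Plxnb2 UMI and 42.3 CPM in the 621 without, and their intervals overlapped. Depth differed between the cells split in this way, and its part in the difference was not tested beyond the thinning.

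**Figure D2:**
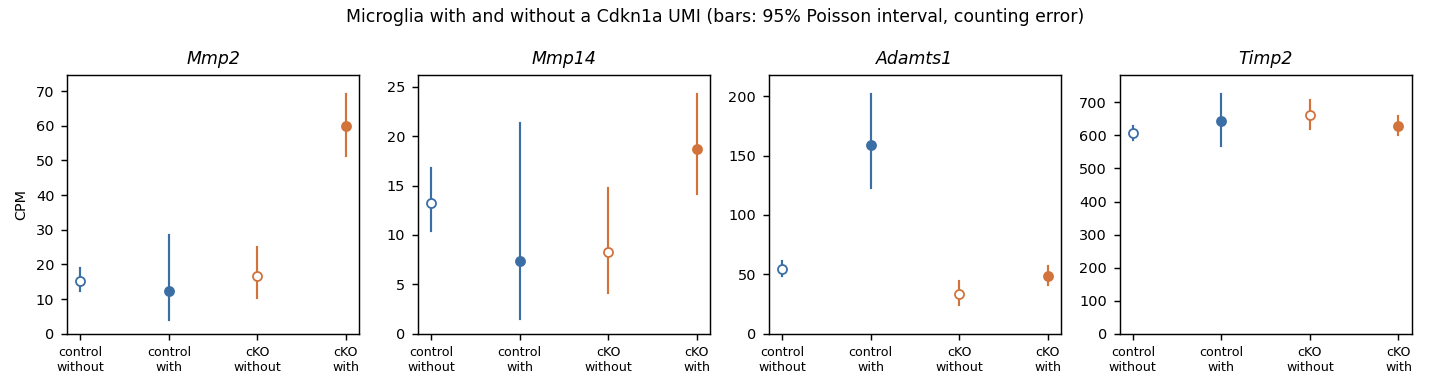
CPM of Mmp2, Mmp14, Adamts1 and Timp2 in microglia with (filled) and without (open) a Cdkn1a UMI in the control and cKO libraries, with 95% Poisson intervals. Mmp2 stood at 59.8 CPM in cKO cells with Cdkn1a and between 12.2 and 16.5 CPM in the other groups of cells, while Adamts1 was highest, at 159 CPM, in control cells with Cdkn1a. The intervals do not cover the uneven spread of UMIs among cells.

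Mmp9 (chr2:164940780-164955850, plus strand), the gene of gelatinase B, a protease stored by neutrophils, was found in few cells. It had 59 UMIs in 15 control cells and 20 UMIs in 8 cKO cells. No microglial cell had an Mmp9 UMI, which allows up to 0.521 CPM in the 1389 control cells and 0.694 CPM in the 749 cKO cells. Most UMIs lay in cluster 29, an unnamed cluster of 15 control and 14 cKO cells whose leading genes S100a9, S100a8 and Retnlg are neutrophil markers, with 32 UMIs in 5 control cells and 16 UMIs in 4 cKO cells. Border macrophages, the resident macrophages of the meninges and vessels, held 22 UMIs in 5 of 127 control cells, of which 14 were in 1 cell, and 1 UMI in 72 cKO cells.

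Mmp12 (chr9:7344381-7369499, plus strand), the gene of macrophage elastase, was likewise concentrated in single cells. The control library had 78 UMIs in 13 cells and the cKO library 54 UMIs in 4 cells. In control microglia 65 UMIs came from 6 cells, with 38, 12 and 8 UMIs in the 3 highest of them, and in cKO microglia 28 UMIs came from 2 cells, with 27 in 1 of them. Border macrophages had 7 UMIs in 1 control cell and 26 UMIs in 2 cKO cells. The class level of Mmp12 in microglia, 11.3 and 6.48 CPM, therefore rested on a handful of cells, and without the highest cell of each library its log2 ratio was -4.34.

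Mmp14 (chr14:54431612-54445364, plus strand) encodes MT1-MMP, the membrane type enzyme that activates pro-MMP2. Astrocytes held 636 control and 301 cKO UMIs, or 51.6 CPM (47.7 to 55.8) and 37.1 CPM (33.0 to 41.6). The log2 ratio was -0.48 (-0.68 to -0.28), a 1.39-fold lower cKO level, just short of 1.5-fold, and with cells thinned to 1000 UMIs it was -0.61, just past that limit. None of the 4 members measured in astrocytes was higher or lower, where 0.741% and 1.02% of measured genes were. Cluster 4, led by Agt and Igsf1, stood at 78.5 and 51.3 CPM, cluster 0 at 41.9 and 33.3 CPM and cluster 5 at 48.5 and 35.7 CPM. The cKO value was the lower in each of these 3 clusters.

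Fibroblasts had the highest Mmp14 level of the named classes, 121 CPM in the 18 control cells and 174 CPM in the 15 cKO cells. Pericytes or smooth muscle had 44.0 and 33.2 CPM, with intervals that overlapped. Their cluster 15, led by the pericyte genes Kcnj8 and Abcc9, stood at 99.8 and 48.0 CPM, and cluster 20, led by the smooth muscle genes Acta2 and Myh11, at 14.0 and 21.1 CPM. Microglia, at 12.8 and 15.5 CPM, and ependymal cells, at 19.1 and 23.02 CPM, did not differ between libraries beyond counting error. Endothelial cells and oligodendrocytes had less than 2 CPM in either library.

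Mmp15 (chr8:95352268-95375080, plus strand) is the gene of a second membrane type enzyme, MT2-MMP. Among the compared classes it was measured in endothelial cells, ependymal cells and pericytes or smooth muscle. Endothelial cells had 22.4 and 18.2 CPM and ependymal cells 24.4 and 26.3 CPM in the control and cKO libraries, and their intervals overlapped. Choroid plexus cells of the control library had 35.1 CPM. Unnamed cluster 7, with endothelial and pericyte markers, had 35.7 and 30.6 CPM, on 100 control and 190 cKO UMIs. Astrocytes held 113 control and 88 cKO UMIs but were under the minimum, at 9.17 and 10.9 CPM. In pericytes or smooth muscle 11 control and 19 cKO UMIs gave 16.7 and 27.5 CPM, a log2 ratio of 0.72 (-0.43 to 1.94) that counting error alone could span. Nearly all of these UMIs, 10 and 17, were in cluster 15.

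Adamts1 (chr16:85793827-85803113, minus strand) encodes a secreted protease with thrombospondin repeats that cuts versican and other proteoglycans and is known as an inhibitor of new vessel growth. Adamts1 UMIs in endothelial cells numbered 764 (control) and 759 (cKO), or 146 CPM (136 to 157) and 86.6 CPM (80.5 to 93.0). The control level was 1.69-fold the cKO level (log2 ratio -0.75, -0.90 to -0.61). It was the 1 member of 3 measured in endothelial cells that was lower, where 1.37% of measured genes were, and no member was higher, where 1.06% of genes were. Thinned to 1000 UMIs, 11.4% of 683 control and 7.70% of 883 cKO endothelial cells had an Adamts1 UMI, and the log2 ratio of the thinned levels was -0.54 (-0.97 to -0.11), which is below the 1.5-fold limit.

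All 3 endothelial clusters had a lower Adamts1 level in the cKO library. Cluster 16, led by Gkn3, Bmx and Sema3g, genes of arterial endothelium, stood at 279 and 180 CPM. The largest, cluster 3, had 127 and 86.9 CPM. Cluster 23, led by the venous genes Vwf, Ackr1 and Slc38a5, held 19 control and 79 cKO cells and had 64.9 and 24.8 CPM. Its control level rests on 29 UMIs, 11 of them in 1 cell. The log2 ratio was -0.55 (-0.73 to -0.37) in cluster 3, short of 1.5-fold, and -0.63 in cluster 16. Cluster 23, the lowest in Adamts1, made up more of the cKO class than of the control class. The part of this mix in the class ratio was not tested. An unnamed cluster that carried endothelial and erythroid markers had 166 and 54.4 CPM, and another with endothelial and pericyte markers 123 and 91.1 CPM. Early response and stress genes, heat shock genes among them, which tissue dissociation can induce, were read beside Adamts1. A list of 16 such genes, chosen after values had been seen, summed to 6404 CPM in control and 5136 CPM in cKO endothelial cells, with 1 gene higher and 3 lower by 1.5-fold. Fos itself was 60.4 and 68.1 CPM. Endothelial cells with a Fos UMI had 170 and 111 CPM of Adamts1 and those without had 137 and 73.7 CPM. This split rests on Fos alone, which did not fall as the summed list did. The part of the 16 listed genes in the difference was not tested.

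**Figure D3:**
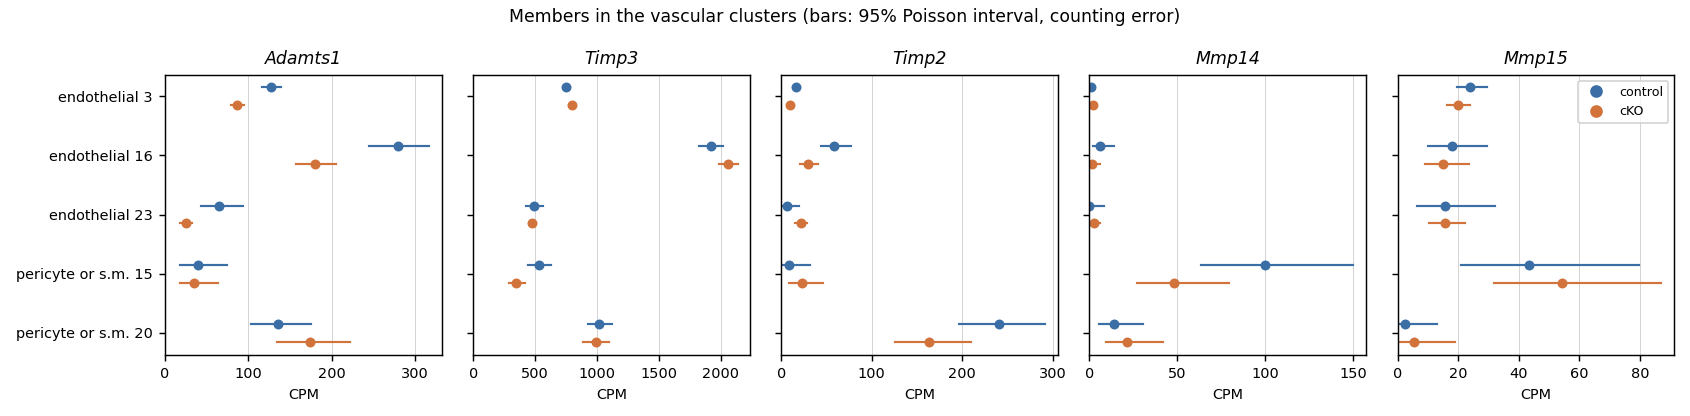
CPM of Adamts1, Timp3, Timp2, Mmp14 and Mmp15 in the 3 endothelial clusters and the 2 clusters of pericytes or smooth muscle (s.m.), control and cKO, with 95% Poisson intervals. Adamts1 was lower in the cKO library in the 3 endothelial clusters but not in cluster 20, and Timp3 was highest in cluster 16 in both libraries. The control Adamts1 level of cluster 23 rests on 29 UMIs, 11 of them in 1 cell.

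Adamts1 was also measured outside the endothelium. Pericytes or smooth muscle had 102 and 111 CPM and ependymal cells 20.6 and 20.5 CPM. Microglia had 61.8 CPM for control and 43.7 CPM for cKO cells (log2 ratio -0.50, -0.76 to -0.24), 1.41-fold lower and so just short of the limit, while the thinned log2 ratio was -0.997. These UMIs lay in 100 of 1389 control and 61 of 749 cKO microglia, with up to 22 in 1 cell. Control microglia with a Cdkn1a UMI had 159 CPM of Adamts1 and those without 54.4 CPM. This split was chosen after values had been seen, and whether a few cells carry its difference was not tested. Oligodendrocytes had 47.8 and 36.6 CPM (log2 ratio -0.38, -0.66 to -0.11). Choroid plexus cells of the control library had 73.2 CPM.

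Timp2 (chr11:118301069-118355740, minus strand) was found in most microglia, with UMIs in 84.6% of control and 84.4% of cKO cells. Its level there was 610 CPM (590 to 630) for control and 639 CPM (616 to 664) for cKO cells, a log2 ratio of 0.07 whose interval just included equality. The next classes in order were ependymal cells at 423 and 449 CPM, border macrophages at 418 and 457 CPM and control choroid plexus cells at 386 CPM, and the first 2 of these did not differ from each other beyond counting error in either library. Oligodendrocytes followed at 256 and 229 CPM (log2 ratio -0.16, -0.27 to -0.05). Astrocytes had 72.9 and 79.3 CPM, and endothelial cells, at 22.4 and 15.3 CPM, were lowest of the compared classes. Microglia held 31.9% of all Timp2 UMIs for control and 42.0% for cKO cells. In cKO microglia with a Cdkn1a UMI the levels of Mmp14 and Timp2 were 18.7 and 630 CPM, against 8.27 and 661 CPM in those without. Mmp14 was under the 20 CPM minimum in microglia of both libraries, at 12.8 and 15.5 CPM (74 and 67 UMIs). This split was chosen after values had been seen and depth differed between its cells, so its values are descriptions.

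In pericytes or smooth muscle Timp2 was lower in the cKO library, at 99.7 CPM (69 UMIs) against 159 CPM (105 UMIs), a log2 ratio of -0.68 (-1.14 to -0.22). Here 7.36% of measured genes were lower and 11.5% higher, against which this call is to be read. Nearly all of the Timp2 UMIs, 103 control and 62 cKO, lay in the smooth muscle cluster 20, at 240 and 164 CPM, and its cells were 73 of 166 in the control class and 71 of 173 in the cKO class. After thinning to 1000 UMIs the ratio turned to 0.33, and in cluster 15 alone, on 2 and 7 UMIs, it was 1.37. The direction for the class was therefore not stable. Endothelial markers summed to 346 CPM in control and 1211 CPM in cKO cells of this class, and their part in its ratios was not tested.

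Timp3 (chr10:86300372-86349506, plus strand) encodes the inhibitor that stays bound to the extracellular matrix. It was found in most endothelial cells, with UMIs in 88.0% of control and 93.1% of cKO endothelial cells. Endothelial cells had 916 CPM (890 to 942) and 910 CPM (890 to 930), a log2 ratio of -0.01 (-0.06 to 0.04), so a difference of 1.5-fold lies outside the counting interval. Arterial cluster 16 stood at 1922 and 2064 CPM, cluster 3 at 751 and 798 CPM and venous cluster 23 at 492 and 479 CPM. Thus in the endothelial clusters Timp3 and Adamts1 both had their highest level in cluster 16 and their lowest in cluster 23, while Adamts1 was lower in the cKO library in each of them and Timp3 was not.

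Pericytes or smooth muscle had 848 and 700 CPM of Timp3 (log2 ratio -0.28, -0.46 to -0.10), with 529 and 349 CPM in cluster 15 and 1020 and 989 CPM in cluster 20. Fibroblasts had 2455 and 3098 CPM, with Timp3 UMIs in all 18 control and all 15 cKO cells. Astrocytes were at 583 and 500 CPM (log2 ratio -0.22, -0.28 to -0.17) and ependymal cells at 404 and 437 CPM. Microglia, at 23.6 and 18.0 CPM, and oligodendrocytes, at 23.7 and 14.3 CPM, were far lower. In neuroblasts 20 control and 21 cKO UMIs gave 29.7 and 15.9 CPM, a log2 ratio of -0.90 (-1.85 to 0.06). That made 1 of the 2 members measured in neuroblasts lower and none higher, in a class where 6.22% of genes were lower and 5.02% higher.

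Timp4 (chr6:115241892-115252205, minus strand) was the astrocyte inhibitor. Astrocytes held 84.1% of its UMIs for control and 87.2% for cKO cells while making up 34.5% and 29.4% of cells. The level was 274 CPM (265 to 283) for control and 347 CPM (335 to 361) for cKO cells, a log2 ratio of 0.34 (0.27 to 0.42), which is outside counting error and short of 1.5-fold. The share of astrocytes with a UMI was 64.0% and 72.2%, and 24.0% and 28.3% after thinning. The cKO value was the higher in clusters 0 (285 and 404 CPM), 4 (362 and 442 CPM), 5 (162 and 248 CPM) and 12 (286 and 470 CPM), and not in cluster 11 (203 and 176 CPM), whose interval included equality. Ependymal cells had 74.9 and 75.3 CPM. In pericytes or smooth muscle 12 control and 23 cKO UMIs gave 18.2 and 33.2 CPM, a log2 ratio of 0.87 (-0.20 to 2.01), making Timp4 and Mmp15 the 2 higher members of 6 measured in that class, where 11.5% of measured genes were higher. Both were under 20 CPM in the control library. With doublet calls kept the Timp4 ratio there turned to -0.12. Elsewhere in the compared classes Timp4 was at or below 14.8 CPM.

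Timp1 (chrX:20870166-20874735, plus strand), the inducible inhibitor that rises in reactive tissue, was scarce, with 31 UMIs in 21 control cells and 26 UMIs in 23 cKO cells. No microglial cell of either library had a Timp1 UMI. Neuroblasts had 4 and 10 UMIs, or 5.93 and 7.59 CPM, each in a different cell. Astrocyte cluster 5, led by Thbs4 and Gfap among others, had 10 UMIs in the control library, of which 8 were in 1 cell, and 4 in the cKO library, all in 1 cell. Timp1 lies inside Syn1 on the opposite strand, Timp3 inside Syn3 and Timp4 inside Syn2, and whether counting used strand is not given in the sources used here. Syn1 stood at 32.6 and 26.6 CPM in neuroblasts, so reads of Timp1 and Syn1 there are uncertain.

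**Figure D4:**
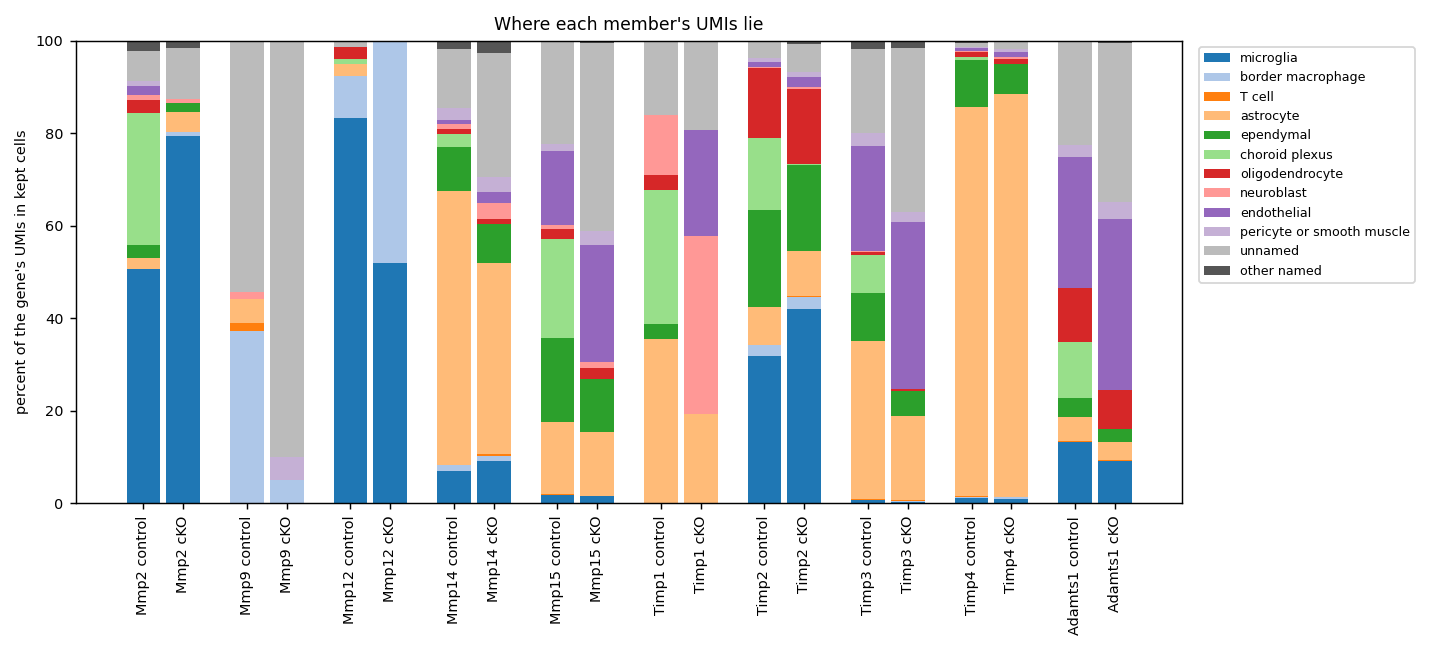
Share of each member's UMIs in kept cells (percent) that lay in each cell class, 1 bar per member and library. Timp4 lay mostly in astrocytes (84.1% and 87.2%) and Mmp2 in microglia (50.6% and 79.4%), and the choroid plexus share is present in the control library, where 357 such cells were kept against 4.

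Ependymal cells had the most members measured together with pericytes or smooth muscle, 6 of 10, and none was higher or lower, where 1.97% and 0.823% of measured genes were. With cells thinned to 1000 UMIs, ependymal Timp2 reached a log2 ratio of 0.64 and ependymal Adamts1 -1.22, the latter on 5 control cells and 1 cKO cell with a UMI, and Timp2 in neuroblasts reached 0.81. Oligodendrocytes had 2, also neither, where 0.414% and 1.22% were. The median log2 ratio of the measured members was -0.05 in astrocytes, -0.29 in endothelial cells, 0.10 in ependymal cells, -0.16 in microglia, -0.27 in oligodendrocytes, -0.53 in neuroblasts and -0.07 in pericytes or smooth muscle. Over all measured genes the medians lay between -0.02 in microglia and 0.06 in pericytes or smooth muscle.

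**Figure D5:**
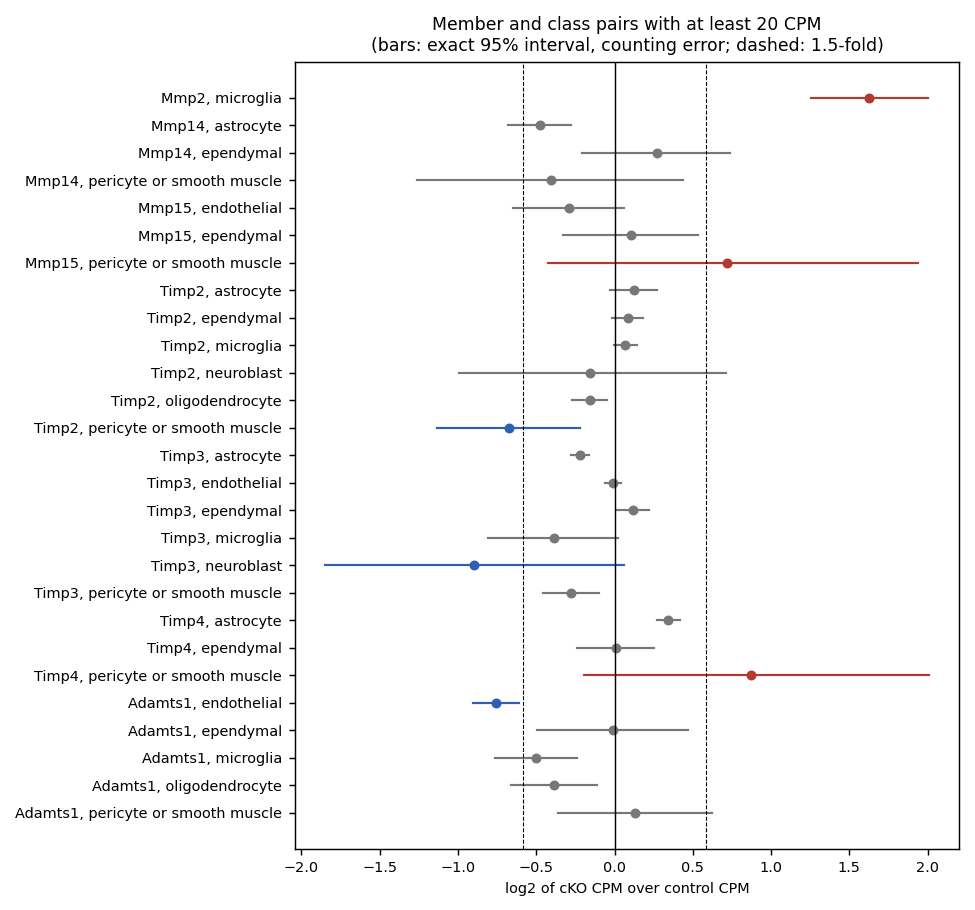
Log2 ratio of cKO over control CPM for the 27 pairs of a member and a class with at least 20 CPM, with exact 95% intervals for counting error; dashed lines mark 1.5-fold, red the higher and blue the lower pairs. Mmp2 in microglia (1.62) stands farthest from 0, and its interval is among the 11 that leave out 0.

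The rest of the system was read from 8 lists of 76 genes, of which 75 were in the files. None of the 13 other secreted matrix metalloproteinases and none of the 4 other membrane-anchored ones was measured in any compared class. Other ADAMTS proteases were measured in 7 pairs with a class, none of them higher or lower. ADAM shedding proteases were measured in 22 pairs, 1 of them lower. The plasminogen system and proprotein convertases gave 13 pairs with 2 higher, both in pericytes or smooth muscle. Other protease inhibitors gave 24 pairs with 2 higher and 3 lower. Docking and clearance partners gave 33 pairs with 1 higher and 1 lower, and matrix substrates 31 pairs with 3 lower. Over all measured genes, 0.414% to 11.5% were higher and 0.823% to 7.36% lower, depending on the class. The pooled counts are therefore not read as a trait of a list. In microglia 16 listed genes were measured and none was higher or lower, and the same held for 16 in astrocytes.

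In pericytes or smooth muscle 4 of the 29 measured listed genes were higher and 3 lower, where 11.5% and 7.36% of all measured genes were, so these counts are near the rate of the class. Eln, which encodes elastin, was 109 CPM for control and 36.1 CPM for cKO cells, and the values below follow that order. Spock2, a brain proteoglycan of the testican family, was 36.4 and 184 CPM, and Bsg, which encodes the metalloproteinase inducer basigin and is abundant in brain endothelium, 422 and 1076 CPM. Spock2 was also higher in ependymal cells, at 12.7 and 38.0 CPM. Cst3, the gene of the cysteine protease inhibitor cystatin C, was lower in the cKO library in oligodendrocytes (1230 and 689 CPM) and neuroblasts (1658 and 946 CPM). Cd63, a TIMP1-binding tetraspanin, was 111 and 68.3 CPM in neuroblasts, and Bcan, the gene of the proteoglycan brevican, 25.4 and 14.7 CPM in endothelial cells.

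Genes whose levels followed the members most closely were found over 16 pairs of a class and a library from 9 classes, by Pearson's r of log2(CPM + 1). Timp4 was followed by Gpr37l1 (r = 0.98), Etnppl (0.98) and Phkg1 (0.97). For Timp3 they were Tgfb2 (0.96), Yap1 (0.96) and Serpinh1 (0.95), for Timp2 Prps2 (0.93), Tent5a (0.90) and Cds1 (0.87), for Mmp14 Grk3 (0.94), Hs2st1 (0.89) and Mmgt2 (0.88), and for Adamts1 Spry1 (0.88), Usp25 (0.87) and Rabac1 (0.86). These points share libraries and depth, and the values are descriptions.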

How the data were processed

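Members and gene lists were chosen with earlier results of these data known. Deposited values were raw UMI counts per gene and barcode from 10x Genomics 3′ libraries, made by the authors with Cell Ranger 7.1.0 on mm10 per the submitters' processing notes. The sources used here do not give the annotation release or the use of introns or strand in counting. The control matrix holds 10942 barcodes with at least 500 UMIs each. The cKO matrix holds 2377349 barcodes, with 20.6% of its UMIs in barcodes under 500 UMIs.

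Barcodes needed 1000 UMIs, 500 genes and at most 10% mitochondrial UMIs (8068 control and 5398 cKO barcodes). Scrublet at an expected share of 6%, in scanpy 1.11.5 on Python 3.11.15, called 5.50% and 3.56% of them doublets, which were removed. Kept cells were clustered together (log counts per 10000, 2000 variable genes without the members and listed genes, 30 components, 15 neighbours, leidenalg 0.10.2 at resolution 1.0), with no batch integration. Clusters were named from 21 marker sets. A marker needed 10% of cells and 2-fold the mean of other clusters, and 3 markers were needed. No name was given if another class had more markers among the top 10 genes, if 75% of a second class's markers were detected, or if a cluster below 1/3 of its library's median depth had no own marker in that top 10. Names are therefore rebuilt from expression.

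UMIs were summed per class. Levels carry exact Poisson intervals, shares exact Clopper-Pearson intervals and ratios exact conditional intervals, all for counting error. With 1 library per group there is no test. A count of 0 allows 3 counts. Named genes are the 10 members, Plxnb2, up to 2 listed genes per direction and class past 1.5-fold with at least 20 CPM, and up to 3 genes with the highest r for each member with 50 CPM. A listed gene that this rule names is not reported here. In simulated microglia sums (6333 genes, 50 changed per size), log2 ratios of 1, -1, 2 and -2 were recovered with medians of 1.01, -0.95, 2.01 and -1.97. These sums were drawn with counting error alone. They check the calculation and cannot speak to variation between cells or animals. Gene coordinates are from GENCODE vM21, which held 99.6% of the identifiers. Alternatives were other floors, limits, resolutions, scalings and minimums, thinning, kept doublets and dropped top cells. Those on unnamed microglial clusters and single vascular clusters were added after the values were seen.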

Additional observations from a re-analysis of the deposited data

Results flagged for a closer look

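In clusters and barcodes that the comparisons did not use, values of 5 members were flagged. Mmp9 was 692 CPM in control and 212 CPM in cKO cells of the unnamed cluster 29, above its level in every class of at least 50 cells. Timp3 was 1044 CPM in cKO cells of cluster 7, an unnamed cluster of 155 control and 324 cKO cells with endothelial and pericyte markers. That was above the 910 CPM of cKO endothelial cells as a class, and below the 2064 CPM of their arterial cluster 16. Barcodes of the cKO matrix with 1 to 100 UMIs, a range the control matrix does not hold, gave 3.83 CPM of Mmp9, 14.8 CPM of Mmp12, 2.55 CPM of Timp1 and 199 CPM of Timp2. In kept cKO cells these genes stood at 0.478, 1.29, 0.622 and 158 CPM. The 58 Mmp12 UMIs of these barcodes lay in 58 barcodes.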

How the results depend on the processing

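With 1 library per genotype no replicate could be left out. No paired analysis was possible because the groups share 1 replicate number and no result comes from a test. The count of 3 pairs higher by 1.5-fold was 5 with cells thinned to 1000 UMIs, 0 with a minimum of 50 CPM, and 1 each with a mitochondrial limit of 5%, with 20%, and with doublet calls kept. The count of 3 lower pairs was 5 with a minimum of 10 CPM and 5 with doublet calls kept. Timp2 in pericytes or smooth muscle (log2 ratio -0.68) turned to 0.33 when thinned and 1.37 in cluster 15 alone, and Timp4 there (0.87) turned to -0.12 with doublets kept. The cause was not tested. Of 304 recomputed ratios of the 27 measured pairs, 284 stayed within the counting interval of the reported ratio and 20 left it or reversed. The sign changed in 26 values, 3 of them for pairs past 1.5-fold (above) and 23 for other pairs, of which 9 also left the interval. Mmp2 in microglia ranged from 1.31 to 1.69 and Adamts1 in endothelial cells from -0.86 to -0.54 over 12 alternatives each. Mmp9, Mmp12 and Timp1 had too few UMIs for a ratio in most classes.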

Other observations

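Cluster 21, an unnamed cluster of 99 control and 24 cKO cells led by Npy, Frzb and Mybpc1, also carried several members. Its Timp3 level was 774 CPM for control and 582 CPM for cKO cells, its Mmp14 level 61.5 and 28.2 CPM, its Timp2 level 98.3 and 73.4 CPM and its Mmp15 level 33.4 and 45.2 CPM. An unnamed cluster of cycling cells with neuroblast markers, 84 control and 98 cKO cells, had 29.99 and 32.2 CPM of Mmp14 and 0 and 1 UMI of Adamts1.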
